A study of Mus musculus with 4 samples.

Results

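T cells recognise antigen through a receptor made of an alpha and a beta chain. Each chain begins with a variable (V) segment that the cell picked from a large set in the germline when it rearranged its receptor genes, and all descendants of a cell keep its choice. A polyclonal population therefore spreads over many V segments, whereas the offspring of a few expanded cells share them. The 163 genes described here are every gene of the deposited matrices whose symbol starts with Trav (128 alpha chain V segments) or Trbv (35 beta chain V segments), of 32285 genes in all.

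The samples were peripheral blood mononuclear cells of 2 inbred mouse strains, BL/6 and SM/J, taken at 12 and 20 months of age, in a study of how strain and ageing bear on spinal disc herniation and pain in SM/J mice. Each strain gave 1 droplet gene expression library in which both ages were mixed after labelling with multiplexing tags (CMO), and the deposited files separate it into 2 matrices by age. The labels name no treatment, transgene, sex or number of animals. The files list 3 tags per matrix without saying whether a tag marks an animal or a pool, so cells that share a tag are called a tagged aliquot and were not counted as replicates. With 1 library per strain, strain and library cannot be told apart. No comparison has a replicate check, no p-value is given, and the 95% intervals (exact Clopper-Pearson) cover counting error only.

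T cells were taken as cells with at least 2 UMIs (counted molecules) of Cd3d, Cd3e and Cd3g, the CD3 chains that carry the receptor to the surface. This gate held 1577 of 11596 kept cells: 450 in BL/6 at 12 months, 513 in BL/6 at 20 months, 379 in SM/J at 12 months and 235 in SM/J at 20 months. Their median depths were 5135.5, 5246, 4548 and 4321 UMIs per cell in the same order. All 9 T cell markers were seen in every matrix, and Trbc2, a beta constant gene, was detected in up to 97.1% of the gated cells. Transcripts of other lineages were present in the gate: the summed B cell markers ranged from 29.2 to 696 CPM (counts per 1000000 gene UMIs), the summed myeloid markers from 282 to 1390 CPM and the summed erythroid markers from 281 to 7100 CPM, the highest myeloid and erythroid sums being in SM/J at 20 months. Within a strain the 2 ages shared 0 cell barcodes, and matrices of different strains shared 1 to 3.

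The segments that carry the results below are shown as the last 90 bases of their coding part, 5′ to 3′, from the GENCODE M21 transcripts on GRCm38. Capitals mark the codon of the conserved cysteine, after which the joined receptor becomes unique to each T cell clone. Trbv19 (chr6:41178375-41179048, plus strand, older name Tcrb-V6) is shown for its high share in BL/6 at 20 months, and Trbv12-2 as the leading segment of BL/6 at 12 months. Trbv29, Trbv3 and Trav8n-2 were seen in BL/6 alone. Trbv13-1 and Trav3-1 are shown as segments seen mainly in SM/J, and Trbv13-2 as the relative of Trbv13-1 that lies on the other side of Trbv12-2 on chromosome 6. All lie on the plus strand, and the printed bases are, in the order below, chr6:41178959-41179048, chr6:41119275-41119364, chr6:41271792-41271881, chr6:41048739-41048828, chr6:41116379-41116468, chr6:41121743-41121832, chr14:53346335-53346424 and chr14:52581124-52581213.
Trbv19: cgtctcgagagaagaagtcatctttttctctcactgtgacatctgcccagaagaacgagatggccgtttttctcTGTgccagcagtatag
Trbv12-2: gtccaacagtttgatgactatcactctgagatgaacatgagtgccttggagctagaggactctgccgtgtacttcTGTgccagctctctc
Trbv29: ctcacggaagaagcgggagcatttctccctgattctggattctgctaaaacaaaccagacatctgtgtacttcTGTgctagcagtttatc
Trbv3: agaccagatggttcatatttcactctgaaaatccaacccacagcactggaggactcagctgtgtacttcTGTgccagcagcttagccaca
Trbv13-1: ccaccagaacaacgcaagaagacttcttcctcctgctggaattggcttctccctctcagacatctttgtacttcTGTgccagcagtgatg
Trbv13-2: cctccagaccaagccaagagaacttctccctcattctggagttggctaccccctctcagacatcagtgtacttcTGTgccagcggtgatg
Trav8n-2: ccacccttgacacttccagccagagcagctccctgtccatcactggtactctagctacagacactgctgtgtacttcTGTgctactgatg
Trav3-1: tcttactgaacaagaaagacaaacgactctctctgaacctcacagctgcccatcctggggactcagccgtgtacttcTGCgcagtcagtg

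V transcripts were sparse but marked the T cell gate. Of 676 V segment UMIs in kept cells, 651 (96.3%) lay in the gated T cells, where 491 of 1577 cells (31.1%, interval 28.9 to 33.5) had at least 1. Gated B and myeloid cells, which should lack rearranged receptors, had such a UMI in 8 of 6235 cells (0.128%). All B and myeloid shares given here and below are of cells without a UMI of Cd3d, Cd3e or Cd3g. They therefore do not measure background in cells that also caught CD3 transcripts. A 3′ library reads the end of a transcript, and the V segment lies near its start. Whether all segments are captured alike is not known, so the order of different segments within a group is a description of captured transcripts, and comparisons between groups are of the same segment.

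Alpha chain segments were detected in 12.2% of gated cells in BL/6 at 12 months, 17.3% in BL/6 at 20 months, 15.0% in SM/J at 12 months and 14.0% in SM/J at 20 months. Beta chain segments were detected in 17.1%, 24.6%, 14.0% and 18.7% of them in the same order. The highest share in gated B or myeloid cells of any matrix was 0.298%, at median depths of 3456.5 to 9299 UMIs. For beta segments in BL/6 the intervals at 12 months (13.7 to 20.9%) and 20 months (20.9 to 28.5%) met at their ends. Thinned to 1000 UMIs per cell, detection of beta segments was 2.89%, 4.68%, 2.37% and 5.53%, and of alpha segments 3.78%, 2.92%, 4.49% and 3.4%, and for both chains the order of the matrices was not that of the full counts.

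Of the 128 Trav genes 58 had at least 1 UMI in gated cells and 9 had 10 or more. Of the 35 Trbv genes 23 had at least 1 UMI and 10 had 10 or more. Nearly all counts fell on segments annotated as functional: 21 of 22 functional Trbv genes were seen, with 351 of 355 Trbv UMIs, and 55 of 108 functional Trav genes, with 293 of 296 Trav UMIs. The Trbv genes without a UMI were mostly pseudogenes, of which 2 of 13 were seen. The mouse Trav locus holds duplicated blocks whose copies carry the letters d and n in their names, and 42 Trav genes share every 50-base window of their transcript with another gene, against 1 Trbv gene. Those 42 genes had 5 UMIs in all, 2 of them having any. Whether reads of such copies were lost to their shared sequence was not tested, so a count of 0 there says nothing about use. The d copies held 11.5%, 9.52%, 25.5% and 12.1% of the Trav-assigned cells of the 4 matrices (order as above), and the n copies 21.2%, 25.0%, 25.5% and 21.2%.

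Each cell was assigned to the segment of a chain with most UMIs, and ties were left out. This placed 224 cells by Trav and 293 by Trbv. Among cells with 2 or more UMIs of a chain, all UMIs came from a single segment in 38 of 46 cells for Trbv and in 36 of 49 for Trav. Across functional Trbv genes whose transcripts were mostly unique, the number of cells had a Spearman correlation of -0.34 (n = 20 genes) with the highest count of A in any 20 bases of the transcript, and across such Trav genes of 0.51 (n = 41 genes). Genes are not independent replicates.

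Trbv19 held a higher share of the Trbv-assigned cells in BL/6 at 20 months than in the other matrices. It was the leading segment of 49 of 124 Trbv-assigned cells there (39.5%, interval 30.9 to 48.7), of 6 of 72 in BL/6 at 12 months (8.33%, 3.12 to 17.3), of 0 of 53 in SM/J at 12 months and of 2 of 44 in SM/J at 20 months (4.55%, 0.555 to 15.5). Its level in the summed gated cells was 3.39 CPM in BL/6 at 12 months (9 UMIs) and 20.7 CPM at 20 months (64 UMIs), a log2 ratio of 2.31 with 1 CPM added to both. Between strains at 20 months the log2 ratio of SM/J over BL/6 was -3.08 (1.57 against 20.7 CPM). The interval of its share in BL/6 at 20 months lay above those of the other 3 matrices. Over only the cells with 2 or more UMIs of their leading segment, Trbv19 led 3 of 10 in BL/6 at 12 months (30.0%, 6.67 to 65.2) and 12 of 18 at 20 months (66.7%, 41.0 to 86.7), and these intervals overlapped.

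Few segments had enough counts for a ratio. Only Trbv19, Trbv2, Trbv12-2 and Trav16n reached 20 UMIs in the 2 matrices of any comparison, and Trbv19 alone differed by 2-fold or more. Between the ages this was 1 of 4 segments in BL/6, where 5.66% of 10057 genes with as many UMIs passed that ratio, and 0 of 0 in SM/J (7.33% of 9128 genes). Between the strains it was 0 of 2 segments at 12 months (10.6% of 9811 genes) and 1 of 3 at 20 months (12.3% of 9660 genes). With so few members these shares cannot be set against the background.

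**Figure D1:**
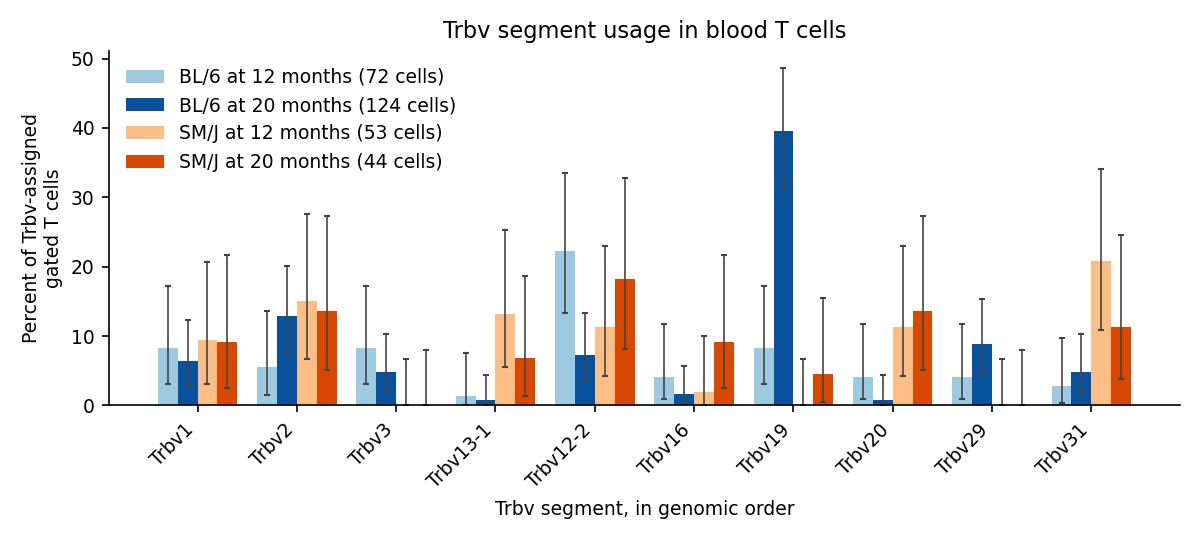
Percent of Trbv-assigned gated T cells led by each Trbv segment with 10 or more UMIs, in the 4 matrices (bars) with exact 95% binomial intervals (lines, counting error only). Trbv19 reached 39.5% in BL/6 at 20 months and at most 8.33% in the other matrices, and Trbv3 and Trbv29 had no bar in SM/J.

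The intervals of the other common segments overlapped between the ages. Trbv12-2 led 16 of 72 cells in BL/6 at 12 months (22.2%, 13.3 to 33.6) and 9 of 124 at 20 months (7.26%, 3.37 to 13.3), intervals that met at 13.3%, and 11.3% and 18.2% of the cells in SM/J at 12 and 20 months. In BL/6 at 12 months 9 of the 16 cells came from 1 tagged aliquot, the share was 14.6% without it, and Trbv12-2 led 0 of the 10 cells with 2 or more UMIs of their leading segment. Trbv2 led 5.56% and 12.9% of the cells in BL/6 and 15.1% and 13.6% in SM/J. For Trbv1 the 4 values lay between 6.45% and 9.43%. Among alpha segments, Trav6-7-dv9 led 9 of 52 cells in BL/6 at 12 months (17.3%, 8.23 to 30.3) and 2 of 84 at 20 months (2.38%, 0.29 to 8.34), and Trav16n led between 6.06% and 12.7% in every matrix.

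Most Trbv19 cells of BL/6 at 20 months lay in 1 compartment. Gated cells were divided by CD8 (at least 1 UMI of Cd8a and Cd8b1, the co-receptor of cytotoxic T cells) and by Ccl5 (at least 2 UMIs; a chemokine of memory and effector T cells), which also makes CD8 and Ccl5 levels a product of the gate. In CD8-positive Ccl5-high cells of BL/6, a Trbv19 UMI was found in 1 of 196 cells at 12 months (0.51%, 0.0129 to 2.81) and in 32 of 118 at 20 months (27.1%, 19.3 to 36.1). In CD8-negative Ccl5-low cells of the same strain the shares were 5 of 165 (3.03%, 0.991 to 6.93) and 12 of 321 (3.74%, 1.95 to 6.44). The smaller compartments had 0 of 73 and 3 of 53 cells (CD8-negative Ccl5-high) and 0 of 16 and 2 of 21 cells (CD8-positive Ccl5-low), with overlapping intervals between the ages. SM/J had 0 of 28 and 0 of 41 such cells in the CD8-positive Ccl5-high compartment, counts that allow up to 12.3% and 8.6% by the exact interval. Gated B and myeloid cells of BL/6 at 20 months had a Trbv19 UMI in 0 of 670 and 0 of 1198 cells.

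Trbv19 was the segment of 32 of the 46 Trbv-assigned CD8-positive Ccl5-high cells of BL/6 at 20 months (69.6%, 54.2 to 82.3), and Trbv29 of 8 more. The remaining 6 cells were spread over 5 segments. At 12 months the 22 assigned cells of this compartment were spread over 10 segments, led by Trbv12-2 with 6 cells and Trbv3 with 3. The probability that 2 different assigned cells share a segment was 0.507 at 20 months and 0.0996 at 12 months. In the other compartments with at least 20 assigned cells, all CD8-negative and Ccl5-low, it was 0.0698 in BL/6 at 12 months, 0.118 in BL/6 at 20 months, 0.101 in SM/J at 12 months and 0.0948 in SM/J at 20 months. The compartment of BL/6 at 20 months was also deeper, with a median of 8807 UMIs per cell against 4908 at 12 months and 5653 and 5796 in SM/J. It yielded a Trbv UMI in 39.0% of its cells against 12.8% at 12 months.

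Each of the 3 tagged aliquots of BL/6 at 20 months held more such cells than any aliquot at 12 months. Within CD8-positive Ccl5-high cells, Trbv19 was found in 11 of 34 cells (32.4%), 15 of 41 (36.6%) and 6 of 43 (14.0%) of the 3 aliquots, and in 1 of 68, 0 of 65 and 0 of 61 at 12 months. The lowest aliquot at 20 months (interval 5.3 to 27.9%) and the highest at 12 months (0.0372 to 7.92%) had overlapping intervals.

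Counts of the beta chain constant gene Trbc1 also differed between the ages in this compartment of BL/6. A rearranged beta chain uses either Trbc1 or Trbc2, alternative constant genes in separate clusters of D and J segments. In BL/6 a Trbc1 UMI was found in 115 of 196 CD8-positive Ccl5-high cells at 12 months (58.7%, 51.4 to 65.6) and in 10 of 118 at 20 months (8.47%, 4.14 to 15.0), at median depths of 4908 and 8807 UMIs per cell. Trbc2 was found in 94.4% and 99.2% of them. Many cells at 12 months thus had UMIs of both genes, and why was not tested. A UMI of either gene was therefore not taken to mark the constant gene that a cell's receptor uses. Trbc1 held 39.1% of all Trbc UMIs of the compartment at 12 months and 5.69% of them at 20 months, the lowest share of any compartment. Without restriction on other genes, the Trbc1 shares of this compartment in SM/J were 12 of 28 cells in the younger (42.9%) and 25 of 41 in the older matrix (61.0%). Each other compartment of at least 20 cells, in either strain, had Trbc1 in 45.8% to 79.1% of cells. Trbc1 was chosen for this description after its values had been seen.

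**Figure D2:**
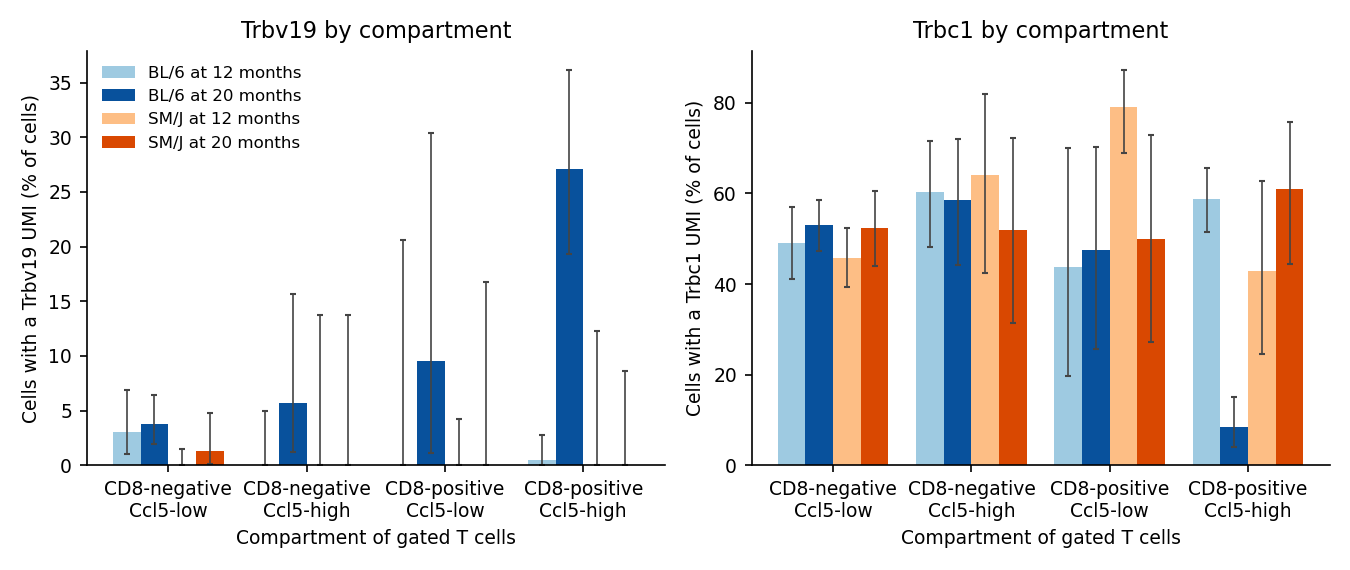
Percent of cells with a Trbv19 UMI (left) and with a Trbc1 UMI (right) in the 4 compartments of gated T cells, by matrix, with exact 95% intervals (counting error only). CD8-positive Ccl5-high cells of BL/6 at 20 months were highest for Trbv19 (27.1%) and lowest for Trbc1 (8.47%).

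A low Trbc1 share was present in each aliquot at 20 months, at 2.94%, 9.76% and 11.6% of cells, against 58.8%, 56.9% and 62.3% at 12 months, and no interval of one age reached those of the other. Among gated B and myeloid cells the highest Trbc1 share was 3.28% (BL/6 myeloid cells at 12 months, median 6578 UMIs per cell), and in BL/6 at 20 months the shares were 1.04% and 2.25%. Natural killer cells can transcribe beta constant genes without a rearranged chain, and 23.0% of the compartment at 12 months and 10.2% at 20 months had a UMI of an NK marker (Ncr1, Klrb1c, Tyrobp or Klra8). Restricted to cells with a Trac UMI (the alpha constant gene) and none of these markers, Trbc1 was found in 55 of 104 cells at 12 months (52.9%, 42.8 to 62.8) and in 7 of 81 at 20 months (8.64%, 3.55 to 17.0). The same restriction gave 5 of 18 cells in SM/J at 12 months (27.8%, 9.69 to 53.5), an interval that overlapped that of BL/6 at 20 months, and 15 of 28 cells in the older SM/J matrix (53.6%, 33.9 to 72.5). It does not rest on the same markers in the 2 strains. At 12 months the NK marker found most often in gated cells was Klrb1c in BL/6 (12.2%) and Tyrobp in SM/J (23.7%), where Klrb1c was found in 0.528%.

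**Figure D3:**
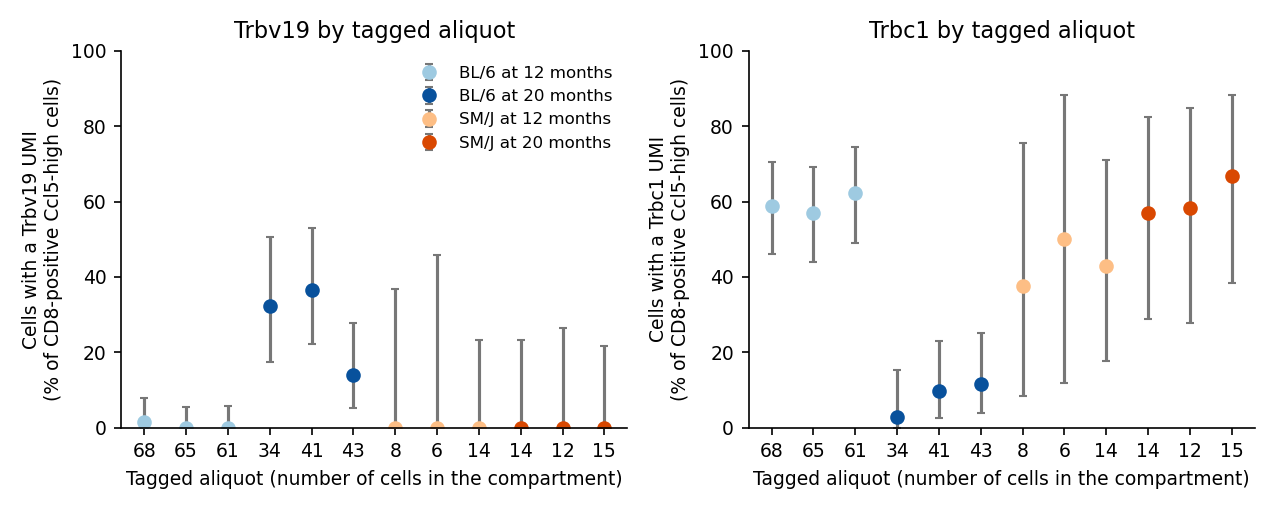
Percent of CD8-positive Ccl5-high cells with a Trbv19 UMI (left) and a Trbc1 UMI (right) in each tagged aliquot, with exact 95% intervals; the numbers along the axis are the cells of each aliquot. The 3 aliquots of BL/6 at 20 months range from 14.0% to 36.6% for Trbv19 and from 2.94% to 11.6% for Trbc1.

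Trbc1 was found in few of these cells, with or without Trbv19, and in most Trbv19 cells that lacked a CD8 UMI. Among CD8-positive Ccl5-high cells of BL/6 at 20 months it was found in 1 of 32 cells with Trbv19, in 0 of 8 with Trbv29 and in 9 of 86 cells without a Trbv19 UMI. Among CD8-negative Ccl5-low cells of the same matrix it was found in 7 of 12 cells with Trbv19 (58.3%, 27.7 to 84.8), an interval that did not meet that of the Trbv19 cells in the CD8-positive Ccl5-high compartment (0.0791 to 16.2%). It was found in 2 of 3 Trbv19 cells of the CD8-negative Ccl5-high and in 0 of 2 of the CD8-positive Ccl5-low compartment.

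An alpha segment, Trav8n-2, was found only in this CD8-positive Ccl5-high compartment of BL/6 among all gated cells. It had a UMI in 4 cells at 12 months and 8 at 20 months, and 0 in SM/J. At 20 months it was the leading alpha segment of 8 of 19 Trav-assigned cells of the compartment (42.1%, 20.3 to 66.5), ahead of Trav5-1 with 4. At 12 months it led 3 of 17 cells, level with Trav6-7-dv9. A Trbc1 UMI was found in 0 of the 4 Trav8n-2 cells at 12 months (0 to 60.2%) and in 0 of the 8 at 20 months (0 to 36.9%). These intervals include the Trbc1 shares of the whole compartment, 58.7% at 12 months and 8.47% at 20 months. Both chains were rarely seen in 1 cell: at 20 months Trav8n-2 was found together with Trbv19 in 2 cells and with Trbv29 in 2 cells, and at 12 months with Trbv19 in 1 cell and with Trbv15 in 1 cell. Of the beta J segments, which join the V segment to the constant gene, the 32 Trbv19 cells had UMIs of Trbj2-7 alone, in 2 cells, and that segment lies in the cluster of Trbc2. In the whole compartment at 20 months Trbj2-7 was found in 5 cells and the only other Trbj segments, Trbj2-1 and Trbj2-2, in 1 cell each. At 12 months Trbj2-7 was found in 3 cells of the compartment, and Trbj1-2 and Trbj2-6 in 1 cell each. Over all gated T cells Trbj2-7 held 29 of the 50 Trbj UMIs, so its presence in 2 cells does not set the Trbv19 cells apart.

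The CD8-positive Ccl5-high cells of the 2 BL/6 ages also differed in state. Of 7823 genes with at least 20 UMIs, 9.01% differed by 2-fold or more between the ages, and Trbv19, at 1.7 CPM (2 UMIs) and 37.1 CPM (40 UMIs), was the single V segment with as many counts. Of 6 genes of naive and circulating T cells 1 was higher by 2-fold or more and 0 lower, with a median log2 ratio of 0.4 beside -0.15 over all genes. The 1 gene was Ccr7, the receptor that guides T cells into lymph nodes (63.1 and 186 CPM). Tcf7, a transcription factor of naive and memory T cells, stood at 185 and 269 CPM, while S1pr1, which lets T cells leave lymph nodes, stood at 159 and 100 CPM. Of 11 effector and memory genes 4 were lower by 2-fold or more and 0 higher. The median was -0.88 over the 10 genes other than Ccl5, on which the cells were gated. The 4 genes were the granzymes Gzma (941 and 29.7 CPM), Gzmb (295 and 33.4 CPM) and Gzmk (38.4 and 15.8 CPM), and Ifng, which encodes interferon gamma (81.0 and 39.0 CPM). Eomes, a transcription factor of memory CD8 T cells, stood higher at 20 months by less than 2-fold (59.7 and 97.4 CPM, log2 ratio 0.7, 0.26 to 1.17). The chemokine receptor Cxcr3 stood at 44.3 and 56.6 CPM and Il2rb, the beta chain of the interleukin 2 receptor, at 263 and 292 CPM, with intervals of the log2 ratio that included 0. Of 3 tested innate-like genes 2 were lower, Klrb1c, an NK and NKT cell receptor (46.9 and 3.71 CPM), and the chemokine receptor Cxcr6 (92.9 and 33.4 CPM), while Il18r1, an interleukin 18 receptor chain, stood at 331 and 446 CPM. Of 2 tested checkpoint genes 1 was lower, and of 3 regulatory T cell genes 2 were lower and 0 higher (median -1.3). Of 8 tested receptor constant and CD3 chain genes 2 were lower, Trbc1 (456 and 46.4 CPM) and the gamma chain gene Tcrg-C2 (30.7 and 1.86 CPM). Cd3d, Cd3e and Cd3g among the 8 were used for the T cell gate. Tcrg-C2 was found in 24 of 196 cells at 12 months (12.2%, 8.01 to 17.7). The other gamma and delta constant genes were found in fewer of these 196 cells: Tcrg-C1 in 3 (1.53%), Tcrg-C4 in 2 and Trdc in 2 (1.02% each). The part of NK-like or gamma delta T cells at 12 months in these gene levels was not tested.

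Within the compartment at 20 months, the 32 cells with a Trbv19 UMI were set beside the 86 without. In the naive list Ccr7 (212 CPM with and 174 CPM without Trbv19), Lef1 (461 and 363 CPM) and Satb1 (803 and 752 CPM) were higher with Trbv19, and Tcf7 (251 and 277 CPM), Il7r (488 and 551 CPM) and S1pr1 (90.9 and 104 CPM) were lower, all by less than 2-fold. Gzma stood at 6.06 and 40.1 CPM, but it was found in 2 of the 32 cells (6.25%, 0.766 to 20.8) and in 4.65% of the others, so these levels rest on few cells. Eomes stood at 57.6 and 115 CPM and was found in 37.5% (21.1 to 56.3) and 48.8% (37.9 to 59.9) of the cells. No UMI of Gzmk was found in the 32 cells, which allows its detection in up to 10.9% of cells by the exact interval. It was found in 11.6% (5.72 to 20.3) of the cells without Trbv19, an overlapping interval. Cd44, a marker of antigen-experienced T cells, stood at 148 and 158 CPM. It had a UMI in 81.2% (63.6 to 92.8) and 58.1% (47.0 to 68.7) of the cells, with overlapping intervals. Il2rb stood at 336 and 273 CPM. The other effector and memory genes (Ccl5, Nkg7, Gzmb, Tbx21, Cxcr3 and Ifng) were lower in CPM with Trbv19, by less than 2-fold. By share of cells with a UMI, Gzmb (18.8% with and 17.4% without), Tbx21 (37.5% and 33.7%) and Cxcr3 (43.8% and 37.2%) were higher with Trbv19. Ifng was lower (21.9% and 25.6%), and Ccl5 and Nkg7 were found in 100% of both groups. Median depths were 10417 UMIs with and 8389.5 without Trbv19, and the cells without a Trbv19 UMI can include cells whose V transcript was missed.

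**Figure D4:**
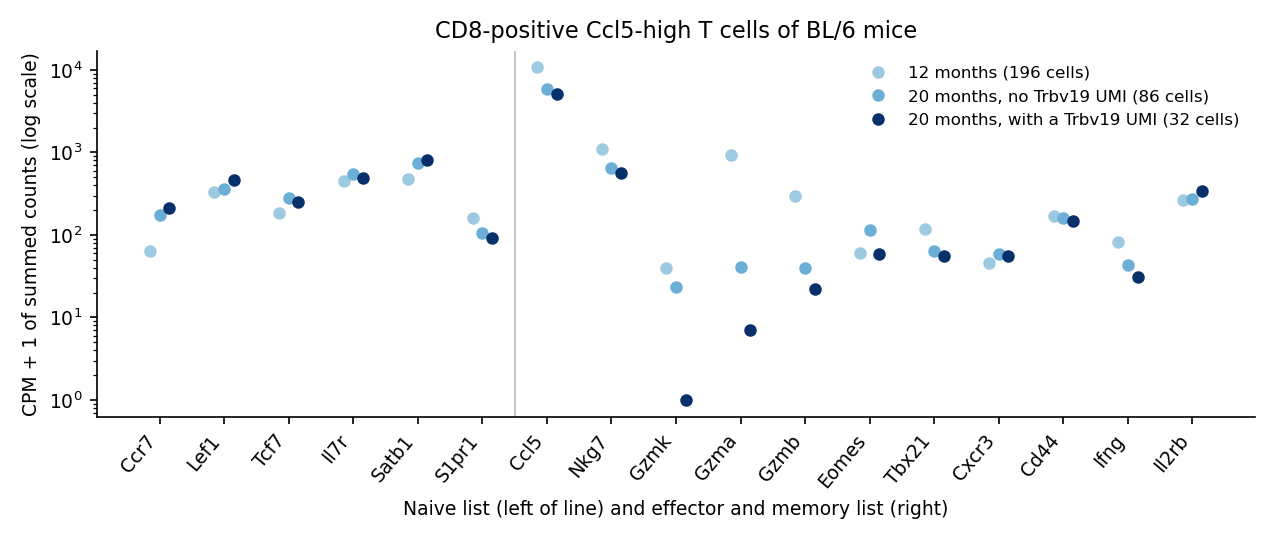
Level of the naive list (left of the line) and of the effector and memory list (right) in CD8-positive Ccl5-high cells of BL/6, as CPM of summed counts plus 1 on a log axis, for 12 months and for 20 months with and without a Trbv19 UMI. Gzma (941 and 29.7 CPM at the 2 ages) and Gzmb (295 and 33.4 CPM) lie far apart between the ages, and Ccl5 itself was used for the gate.

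Over all gated T cells the same lists gave the following counts of genes past 2-fold, beside 5.66% of all tested genes in BL/6 and 7.33% in SM/J. In BL/6, 20 over 12 months, 1 of 6 naive genes was higher and 0 lower (median log2 ratio 0.41, all genes -0.09), 0 of 11 effector and memory genes were higher and 4 lower (-0.95; without Ccl5, 3 of 10 lower and -0.8), and 0 of 4 checkpoint and 0 of 4 regulatory T cell genes passed. Of 4 tested genes of innate-like T cells 2 were lower and 0 higher (-0.9). Of 11 receptor constant and CD3 chain genes 1 was lower, Tcrg-C2 of the gamma chain (log2 ratio -1.69), and 0 were higher. This list includes Cd3d, Cd3e and Cd3g, on which the cells of both strains were gated. In SM/J, 20 over 12 months, 0 of 6 naive genes passed (-0.12, all genes 0.11), and of 10 tested effector and memory genes 1 was higher and 1 lower (0.46), and 0 of 2 checkpoint and 0 of 4 regulatory T cell genes passed. There 2 of 3 innate-like genes were higher (1.3), as were 2 of 10 receptor genes, Trdc of the delta chain (log2 ratio 2.52) and Tcrg-C2 (1.98). CD8-positive Ccl5-high cells made up 43.6% (12 months) and 23.0% (20 months) of the gated BL/6 cells and 7.39% and 17.4% of the gated SM/J cells, so these sums mix compartments in different shares.

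Some segments were seen in BL/6 alone. Trbv3 (older name Tcrb-V16) was found in 14 of 963 gated BL/6 cells (1.45%, 0.797 to 2.43), Trbv29 (Tcrb-V7) in 14 (1.45%) and Trav8n-2 in 12 (1.25%), and each in 0 of 614 SM/J cells, which allows the segment to be detected in up to 0.599% of cells by the exact interval. This limits captured transcripts and not use of the segments, since most gated cells yielded no V segment UMI. Of the Trbv-assigned SM/J cells, 0 of 53 and 0 of 44 allow up to 6.72% and 8.04% at 12 and 20 months, and of the Trav-assigned cells 0 of 55 and 0 of 33 allow up to 6.49% and 10.6%, which overlapped the BL/6 intervals of all 3 segments at the same age. These segments were named because they had 0 UMIs in SM/J, so the difference is a description. Trbv3 led 6 of 72 assigned cells of BL/6 at 12 months and 6 of 124 at 20 months, and 3 of the 12 were CD8-positive. Trbv29 led 3 and 11 cells at the 2 ages, 12 of the 14 being Ccl5-high. All 12 Trav8n-2 cells and 9 of the Trbv29 cells lay in the CD8-positive Ccl5-high compartment, which held 314 BL/6 cells and 69 SM/J cells. Within it Trav8n-2 was found in 3.82% (1.99 to 6.58) of the BL/6 cells and Trbv29 in 2.87% (1.32 to 5.37), and 0 of 69 SM/J cells allow up to 5.21% by the exact interval, so the strains' intervals overlapped there.

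Other segments were seen more often in SM/J. Trav3-1 was found in 12 of 614 SM/J cells (1.95%, 1.01 to 3.39) and in 1 of 963 BL/6 cells (0.104%, 0.00263 to 0.577). Trbv13-1 was found in 10 SM/J cells (1.63%, 0.784 to 2.97) and 2 BL/6 cells (0.208%, 0.0252 to 0.748). Its relative Trbv13-2, chosen after its values were seen, led 5 BL/6 cells at 12 months (6.94%, 2.29 to 15.5) and 3 at 20 months (2.42%, 0.502 to 6.91) and 0 SM/J cells, with overlapping intervals in all 4 matrices. Trav7d-3 was found in 7 SM/J cells (1.14%, 0.46 to 2.33) and 2 BL/6 cells (0.208%, 0.0252 to 0.748), with overlapping intervals. For Trav5-4 the counts were 8 and 1, with intervals of 0.564 to 2.55% in SM/J and 0.00263 to 0.577% in BL/6 that overlapped at their ends, for Trbv20 they were 12 and 5, and for Trbv31, the 1 Trbv gene on the minus strand, 16 and 9, again with overlapping intervals. Trbv31 led 20.8% (12 months) and 11.4% (20 months) of the assigned SM/J cells, beside 2.78% and 4.84% of the BL/6 cells, and 8 of its 11 cells in SM/J at 12 months came from 1 tagged aliquot. The 12 Trav3-1 cells came from 2 aliquots at each age (1 and 4 cells, then 3 and 4). Trbv1 (1.45% of BL/6 and 1.47% of SM/J cells) and Trbv2 (2.18% and 2.28%) had overlapping intervals in the strains. SM/J reads were set against a reference of another strain, and a segment whose SM/J allele differs from it can lose its reads or pass them to a relative, which these counts cannot tell apart from use.

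**Figure D5:**
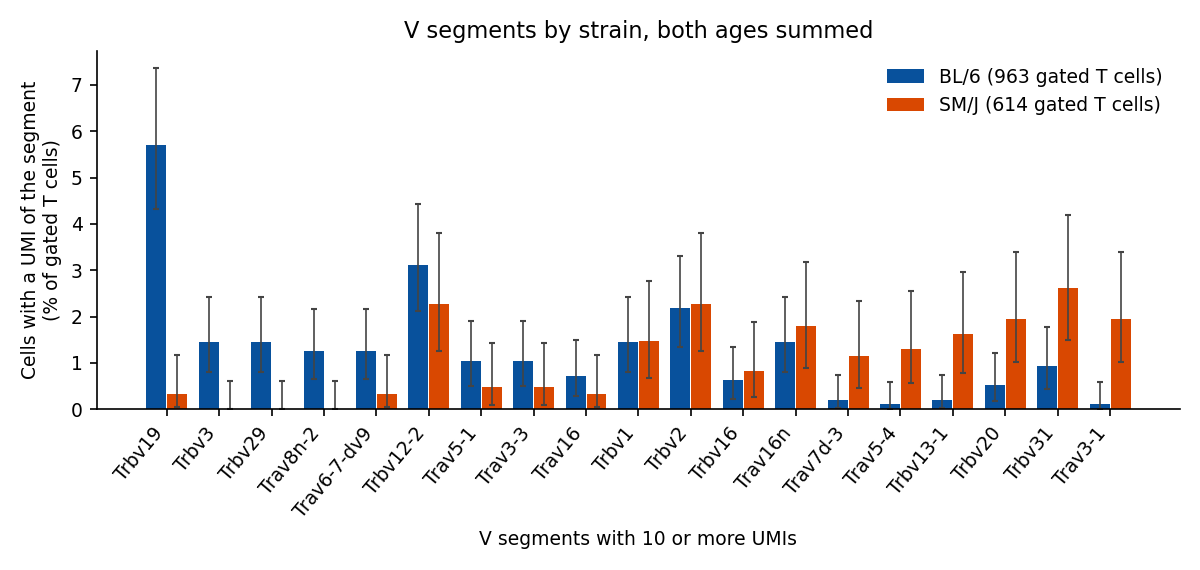
Percent of gated T cells with a UMI of each V segment that had 10 or more UMIs in all, for BL/6 and SM/J with both ages summed, ordered by the difference, with exact 95% intervals (counting error only). Trbv19, Trbv3, Trbv29 and Trav8n-2 stand at the BL/6 end and Trav3-1, Trbv31, Trbv20 and Trbv13-1 at the SM/J end.

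CD8-positive cells were unevenly spread over the segments. Over all matrices 106 of 293 Trbv-assigned cells were CD8-positive (36.2%, 30.7 to 42.0). Trbv2 cells were mostly CD8-negative, with 3 of 34 CD8-positive (8.82%, 1.86 to 23.7): 0 of 4 and 2 of 16 in BL/6 at 12 and 20 months and 1 of 8 and 0 of 6 in SM/J. Trbv19 had 35 of 57 (61.4%, 47.6 to 74.0), of which 34 came from BL/6 at 20 months. Over all Trav-assigned cells 69 of 224 were CD8-positive (30.8%, 24.8 to 37.3). Trav8n-2 had 11 of 11 assigned cells CD8-positive and Ccl5-high. Trav3-1, seen in SM/J, had 2 of 5 assigned cells CD8-positive at 12 months and 6 of 7 at 20 months, beside 12 of 55 and 14 of 33 of all Trav-assigned cells of the same matrices. A CD8-negative cell here is a cell without a CD8 UMI, so CD8 T cells with missed transcripts can be among them.

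Similarity of usage between matrices was summarised by Morisita's overlap, which compares the chance that cells of 2 matrices share a segment with the same chance within each; it is 0 with no shared segment, about 1 for equal usage, and can exceed 1 by sampling. For Trbv it was 1.03 between the ages of SM/J and 0.557 between those of BL/6, and 0.612 and 0.453 between the strains at 12 and 20 months. Left without CD8-positive Ccl5-high cells, an alternative chosen after the data had been seen, the value between the BL/6 ages was 0.859 and that between the strains at 20 months 0.817, while 0.561 was found between the strains at 12 months. For Trav it was 0.941 between the ages of SM/J, 0.76 between those of BL/6, and 0.446 and 0.371 between the strains. Without CD8-positive Ccl5-high cells the Trav values were 1.39, 0.803, 0.494 and 0.827 in the same order, so the low overlap between the strains at 20 months did not hold for Trav or Trbv there. These are descriptions over 33 to 124 assigned cells per matrix, and over 26 to 78 where that compartment was left out.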

How the data were processed

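The authors deposited raw UMI counts per gene and cell, made with Cell Ranger (7.0.1, per the file headers); the submitters' processing notes name mm10 and Seurat 4.3.0. Members and lists were chosen with earlier results of these data known. From the naive list 1 gene was left out, for a reason unrelated to its values, and is not reported here, so counts and medians of that list cover the other 6. Cells with at least 500 UMIs, 200 genes and at most 10% mitochondrial UMIs were kept, and 125 doublets called by Scrublet (scanpy 1.11.5, expected rate 0.06, per strain) were left out. Gene IDs of all 163 members matched GENCODE M21 (GRCm38), whose coordinates and transcripts are given. Cells led by a tag not listed for their matrix (20 of BL/6, 28 of SM/J, all in the 12-month matrices) stayed in their matrix and in no aliquot. Ratios are of CPM of summed counts with 1 CPM added, for genes with at least 20 UMIs. Segments were named if they were among the 5 highest by mean share per chain, led a compartment with 20 assigned cells, differed 2-fold between ages or strains with 20 cells, had 0 UMIs in 1 strain and 10 in the other, or lay mainly in 1 aliquot; other segments (Trbv13-2, Trbv15, Trbv20, Trav5-1) and Trbc1 were named after their values were seen. Alternatives moved the gates, filters, doublets, depth and counting, and left out each aliquot; overlap and repeat values count as kept within their leave-one-out range. edgeR 4.0.16 (TMM only), R 4.3.3, Python 3.11.15, numpy 2.4.6 and scipy 1.17.1 were used, and the statistics were tested on simulated data.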

Additional observations from a re-analysis of the deposited data

Results flagged for a closer look

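Cells outside the T cell gate also carried V segments. Of 286 kept cells with a single UMI of Cd3d, Cd3e and Cd3g, which entered only the alternative with a CD3 sum of at least 1, 8 had a Trav or Trbv UMI (2.8%, 1.22 to 5.44), above the 0.128% (0.0554 to 0.253) of gated B and myeloid cells. Whether these are T cells of low depth was not tested.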

How the results depend on the processing

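Shares count as kept inside the interval of the reported value, repeat probabilities and overlaps inside their leave-one-out range, and counts or percents of genes within 1.5 times. Under alternatives that left no aliquot out, 220 values were kept and 30 moved. For the moved values the cause was not tested, except that thinning lowers detection by construction. Thinned to 1000 UMIs, Trav detection was 3.78%, 2.92%, 4.49% and 3.4% and Trbv detection 2.89%, 4.68%, 2.37% and 5.53% (BL/6 at 12 and 20 months, then SM/J). With a CD3 sum of at least 1, Trbv detection in SM/J at 20 months was 13.8%. Over only the cells with 2 or more UMIs of the leading segment, Trbv19 held 30.0% of 10 cells in BL/6 at 12 months and 66.7% of 18 at 20 months, and Trbv12-2 held 0.0% at 12 months. The repeat probability of CD8-positive Ccl5-high BL/6 cells at 12 months was 0.131 with a mitochondrial limit of 5% and 0.0735 without cells holding transcripts of other lineages, and that at 20 months was 0.379 without those cells. Trbv overlap between strains at 20 months was 0.592 without those cells and 0.817 without CD8-positive Ccl5-high cells, and between the BL/6 ages 0.859 without the latter. Trav overlap between the SM/J ages was 1.28 with the 5% limit and 1.39 without CD8-positive Ccl5-high cells, and between strains at 20 months 0.622 and 0.827. Genes past 2-fold were 3.49% at 50 UMIs or more and 2.57% with 5 CPM added between the BL/6 ages, 4.14% and 4.21% between the SM/J ages, and 8.04% and 7.8% between strains at 20 months; between strains at 12 months they were 6.11% with 5 CPM added. With the 5% limit Trbv3 was found in 8 BL/6 cells.

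Leaving out each aliquot gave 33.3 to 48.1% for Trbv19 in BL/6 at 20 months, 65.4 to 74.3% in its CD8-positive Ccl5-high cells, 6.67 to 10.7% for Trbc1 there and 57.0 to 59.5% at 12 months. Repeat probabilities ranged from 0.0758 to 0.121 in the younger and 0.449 to 0.563 in the older BL/6 compartment, and Trbv overlaps from 0.445 to 0.68 between the BL/6 ages. Trbv12-2 in BL/6 at 12 months ranged from 14.6% (without its first aliquot) to 26.9%. Leaving out the first aliquot of BL/6 at 20 months lowered the cells with Trbv29 from 14 to 9. No paired analysis was possible because each group is 1 matrix and no result comes from a test. The alternatives on Trbc1, on segments seen in BL/6 alone, without CD8-positive Ccl5-high cells and without Ccl5 were chosen after seeing the data. At 33 to 124 assigned cells per matrix and chain, segments of a few percent cannot be compared.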

Other observations

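Other receptor segments were read in the same gated cells. Of 60 alpha chain J segments (Traj) 29 had a UMI, with 209 UMIs in all, and Traj18, which invariant NKT cells use, led them with 62 UMIs in 14, 19, 14 and 15 UMIs over the 4 matrices (BL/6 at 12 and 20 months, then SM/J). Of 14 beta chain J segments 9 had a UMI, and Trbj2-7 held 29 of their 50 UMIs. Neither of the 2 Trbd segments had a UMI. Trgv2, a gamma chain V segment, had 126 UMIs, of which 59 lay in BL/6 at 12 months.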
